A study of Mus musculus with 23 samples.

Results

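The promoters of 58 genes for developmental transcription factors outside the Hox clusters were examined for DNA methylation in mouse epiblast and extra-embryonic ectoderm (ExE). The genes were listed by family. A window, labelled by the submitters as one of 100 CpGs, was assigned to a gene by its position. It had to overlap 1 kb on either side of any annotated transcription start of that gene in GRCm38. All 58 gene symbols were found among 20780 autosomal protein-coding genes, and their promoters took up 300 of 333984 windows at embryonic day (E) 6.5 and 320 of 402812 windows at E7.5. Each promoter had between 2 and 14 windows, and no window was shared by members. The promoter value of a gene is the mean percent methylation over its windows, weighted by their overlap with the promoter. It uses the windows that have a value in every library of a comparison, so that the level of a gene in the same library can differ between comparisons at E6.5.

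Methylation was read by post-bisulphite adaptor tagging (PBAT), which attaches adaptors after the bisulphite step and so needs little DNA, in embryos of reciprocal matings between C57BL6/Babr (B6) and CAST/Ei (CAST) mice, with the mother named first. At E6.5 the wild-type groups were B6/CAST epiblast (n = 3), CAST/B6 epiblast (n = 3), B6/CAST ExE (n = 2) and CAST/B6 ExE (n = 2), each library a pool of manually separated tissue from several embryos, taken from the input of a chromatin immunoprecipitation. The maternal knockout groups at E6.5, matDKO/CAST epiblast (n = 2) and ExE (n = 3), came from B6/129 females with floxed Dnmt3a and Dnmt3b genes and a Zp3 transgene that deletes them in the oocyte, mated to CAST males, so that the embryos also carried 129 sequence that the B6/CAST controls lacked. At E7.5 either tissue of either cross had 2 wild-type libraries, and methylation was also given for each parental allele.

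The epiblast gives rise to the embryo proper, and the ExE is trophoblast that contributes to the placenta. CpG-rich promoters of regulators of body patterning are as a rule free of DNA methylation in embryonic cells, where Polycomb complexes hold many of them silent. Gain of methylation at such promoters in extra-embryonic tissue, while the rest of the genome stays less methylated than in the embryo, is a known feature of the trophoblast lineage.

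The tables hold percentages only, so that the number of reads behind each value is unknown and no counting interval can be given. Over the windows measured in every wild-type library, mean methylation at E6.5 was 65.6 to 79.8% in epiblast and 52.4 to 65.7% in ExE, and at E7.5 71.7 to 75.6% and 56.0 to 59.2%. The promoter of Elf5, a trophoblast regulator whose promoter is methylated in the epiblast lineage, checked the tissue labels: it was lower in ExE by 20.8 percentage points at E6.5 (limma, adjusted p = 0.000458) and by 21.2 points at E7.5 (adjusted p = 3.97e-05). Its level in ExE was nevertheless 57.4% ± 2.39 (SD, n = 4) at E7.5. Nothing in the labels says that replicates came from separate litters, so the p-values measure the spread between these libraries only.

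The bases just before the start of a few genes show what kind of DNA is described. Each run below is the 250 bases that precede the 5′-most start in GENCODE, read 5′ to 3′ on the gene's strand from the RefSeq sequence of GRCm38.p6, with CpG sites in capitals. The first set holds the 3 genes with the largest gain in ExE at E7.5, and Pax8, chosen after its values were seen because the window over its start gained most among windows under 2 kb that hold a start.
Tbx5, chr5:119832418-119832667, plus strand: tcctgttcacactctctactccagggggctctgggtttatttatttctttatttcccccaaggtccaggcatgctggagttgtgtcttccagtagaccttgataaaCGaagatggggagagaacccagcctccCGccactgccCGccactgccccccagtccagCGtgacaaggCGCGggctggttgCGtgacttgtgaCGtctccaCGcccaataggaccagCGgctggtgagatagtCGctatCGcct
Barhl1, chr2:28916669-28916918, minus strand: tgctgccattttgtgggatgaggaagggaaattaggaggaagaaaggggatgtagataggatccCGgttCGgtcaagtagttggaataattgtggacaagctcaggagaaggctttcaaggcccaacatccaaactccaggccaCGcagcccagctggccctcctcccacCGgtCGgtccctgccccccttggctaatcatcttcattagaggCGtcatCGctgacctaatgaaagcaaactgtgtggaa
Nkx2-5, chr17:26845010-26845259, minus strand: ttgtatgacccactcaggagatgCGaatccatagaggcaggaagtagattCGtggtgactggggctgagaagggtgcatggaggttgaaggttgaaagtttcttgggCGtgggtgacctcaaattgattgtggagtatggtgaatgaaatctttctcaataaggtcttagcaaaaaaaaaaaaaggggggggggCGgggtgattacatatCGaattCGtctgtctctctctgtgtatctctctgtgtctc
Pax8, chr2:24475600-24475849, minus strand: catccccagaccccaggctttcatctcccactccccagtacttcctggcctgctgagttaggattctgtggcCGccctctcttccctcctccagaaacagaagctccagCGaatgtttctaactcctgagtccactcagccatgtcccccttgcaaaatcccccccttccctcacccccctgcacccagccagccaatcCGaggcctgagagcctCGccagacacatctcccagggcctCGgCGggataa
The second set holds the 3 genes with the lowest ExE level at E7.5.
Neurog2, chr3:127632885-127633134, plus strand: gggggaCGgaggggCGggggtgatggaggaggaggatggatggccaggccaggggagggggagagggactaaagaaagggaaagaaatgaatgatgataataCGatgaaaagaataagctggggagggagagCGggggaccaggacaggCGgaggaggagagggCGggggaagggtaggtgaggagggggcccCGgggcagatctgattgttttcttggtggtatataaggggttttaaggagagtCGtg
Irx5, chr8:92357375-92357624, plus strand: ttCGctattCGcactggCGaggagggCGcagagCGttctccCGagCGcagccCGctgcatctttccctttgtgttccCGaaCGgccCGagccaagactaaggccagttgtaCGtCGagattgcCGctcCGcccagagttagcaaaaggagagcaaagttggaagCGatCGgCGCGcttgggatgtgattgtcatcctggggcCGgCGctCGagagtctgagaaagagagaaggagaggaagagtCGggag
Nkx6-1, chr5:101664997-101665246, minus strand: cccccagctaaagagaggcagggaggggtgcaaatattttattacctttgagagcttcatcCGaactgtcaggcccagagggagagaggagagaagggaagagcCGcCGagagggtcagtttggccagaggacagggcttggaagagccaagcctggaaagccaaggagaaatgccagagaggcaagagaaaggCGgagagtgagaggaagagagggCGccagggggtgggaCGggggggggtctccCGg
The Tbx5 stretch has 12 CpGs, and the E7.5 window that holds 225 of its bases was at 11.6% ± 6.27 in epiblast and 42.4% ± 5.72 in ExE (n = 4 each). The Irx5 stretch has 23 CpGs, and its window was at 1.20% ± 0.156 and 3.66% ± 1.09. The Neurog2 stretch has 8 CpGs, and its window was at 1.27% ± 1.72 in epiblast and 2.22% ± 0.806 in ExE. A stretch poor in CpGs was not always a methylated one, since that of Nkx6-1 has 7 CpGs in a window at 2.97% ± 1.21 in ExE, and that of Barhl1 also has 7 in a window at 21.5% ± 0.738.

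The first comparison was between tissues. The 58 promoters went against the genome: they were more methylated in ExE than in epiblast, whereas most promoters were less methylated. At E7.5 the median over the genes was 4.40 to 5.42% in the epiblast libraries and 15.5 to 16.5% in the ExE libraries, and the groups did not overlap. Of the 58 genes, 52 were higher in ExE and 1 was lower (limma, adjusted p below 0.05), beside 2.44% of all 20684 promoters called higher and 82.2% called lower. The median difference was 9.12 percentage points over the 58 genes and fell by 8.96 points over all promoters. In 53 genes every ExE library lay above every epiblast library, and in 1 below, patterns held by 2.3% and 75.5% of all promoters. At E6.5 the library medians were 2.55 to 8.32% in epiblast and 15.5 to 17.9% in ExE. There 32 of the 58 genes were higher in ExE and 1 was lower, beside 1.29% of 19288 promoters called higher and 50.8% called lower, and the median difference was 8.57 points, against a fall of 10.1 points over all promoters. In 21 genes every E6.5 ExE library was above every epiblast library and in 1 below, beside 0.804% and 16.0% of all promoters. The E6.5 count of genes called higher depended on the setting. With the replicate number as a block, which treats same-numbered libraries as a set, it was 5, beside 0.238% of all promoters. Among the fits without a replicate block it was 7 in B6/CAST alone and 8 in CAST/B6 alone, beside 0.17% and 0.491% of all promoters. After the mean of each library was subtracted it was 57, beside 32.1%. It was 19 with windows that hold a start (48 genes tested, beside 1.34%) and 21 with the 5′ end of the gene only (beside 1.14%). At E7.5 a minimum difference of 10 points left 27 genes higher, beside 0.778% of all promoters.

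**Figure D1:**
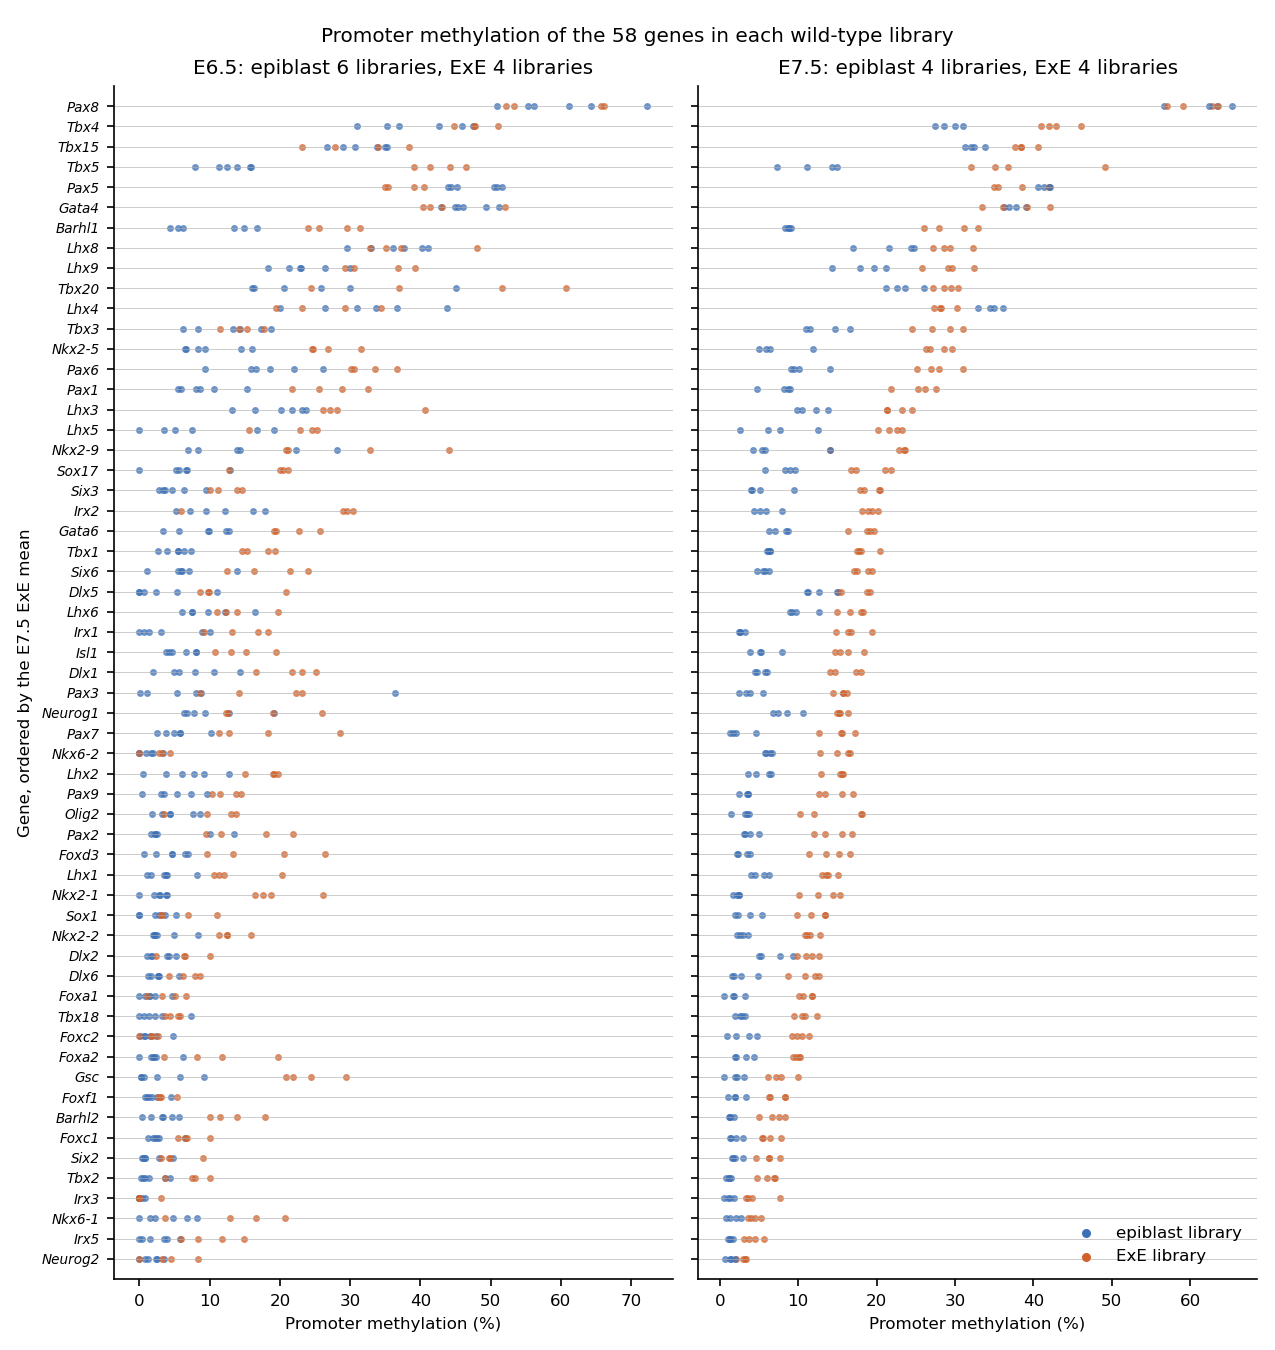
Promoter methylation (%) of each of the 58 genes in every wild-type library at E6.5 (left) and E7.5 (right), 1 point per library, with epiblast in blue and ExE in orange and the genes ordered by their mean in E7.5 ExE. The ExE points lie to the right of all epiblast points in 53 genes at E7.5 and in 21 genes at E6.5, where the points are more widely spread.

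**Figure D2:**
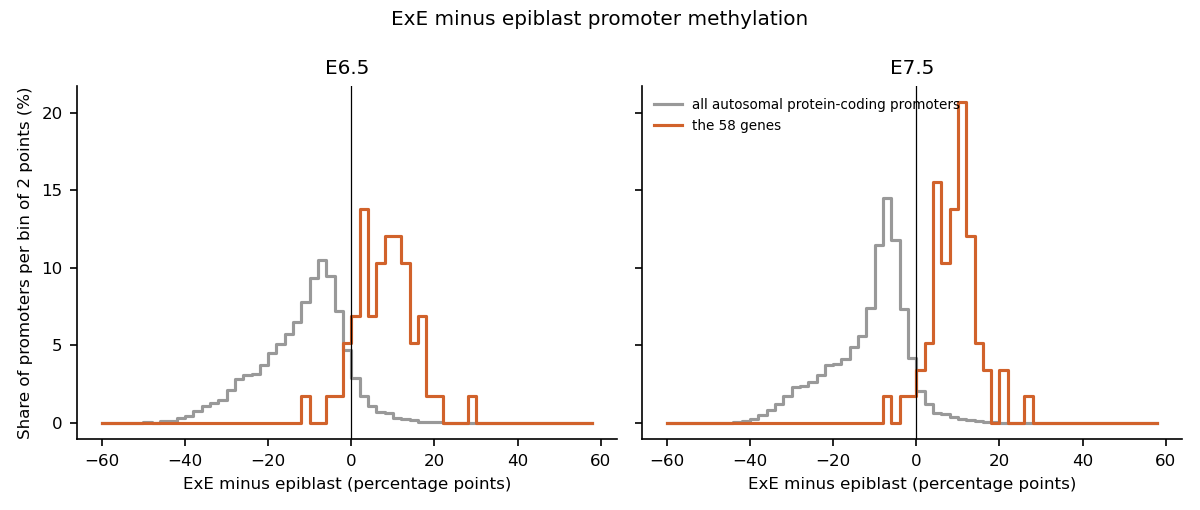
Distribution of the difference between ExE and epiblast promoter methylation (percentage points, bins of 2 points) at E6.5 (left) and E7.5 (right), as a share of all autosomal protein-coding promoters (grey) and of the 58 genes (orange). The grey distribution is centred below 0 and the orange one above it, at a median of 8.57 points at E6.5 and 9.12 points at E7.5.

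Promoters with little methylation in the epiblast were then taken alone. To keep the choice apart from the values compared, promoters were picked by a mean under 10% in the epiblast of the other day. Of 701 promoters picked at E6.5 in this way, 32.8% were higher in ExE at E7.5, with a median difference of 0.164 points, and among the 40 of them that belong to the 58 genes 38 were higher, with a median of 8.87 points. In the opposite direction 23.2% of 630 promoters and 26 of 43 members were higher at E6.5.

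The other developmental regulators that were listed beside the 58, which include Emx2, Sox14, Olig3 and Gata2, were tested in the same fit: at E7.5, 60 of 87 were higher in ExE and 5 were lower, with a median difference of 6.90 points, and at E6.5, 34 of 85 were higher and 2 were lower. Of 24 housekeeping genes 0 were higher in limma at E7.5 and 21 were lower, and at E6.5 0 were higher and 9 were lower. Beside both lists, 2.44% of all promoters were higher and 82.2% lower at E7.5, and 1.29% and 50.8% at E6.5.

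Genes methylated in ExE were defined as those with at least 20% in each of the 4 E7.5 ExE libraries, all above each of the 4 epiblast libraries. This held for 13 of the 58 genes (22.4%), beside 0.711% of all promoters. They were Tbx3, Tbx4, Tbx5, Tbx15 and Tbx20, Lhx3, Lhx5, Lhx8 and Lhx9, Pax1 and Pax6, Nkx2-5 and Barhl1. Of these, Tbx15, Tbx20 and Lhx8 were already at 32.4, 23.4 and 22.0% in E7.5 epiblast, with differences of 6.44, 5.57 and 7.42 points. At E6.5 Tbx15 was at 30.8% in ExE and 31.7% in epiblast, and Lhx8 at 38.3 and 36.3%. Pax8, Pax5, Gata4 and Lhx4 also had at least 20% in every E7.5 ExE library, but not above every epiblast library. The members nearest to the limit were Lhx5, whose lowest ExE library was at 20.1%, on the inside, and Irx2, whose lowest was at 18.1%, on the outside. At the other end, 10 genes stayed under 10% in every E7.5 library, namely Foxf1, Foxc1, Gsc, Barhl2, Tbx2, Six2, Nkx6-1, Irx3, Irx5 and Neurog2, beside 1.48% of all promoters.

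The T-box family, DNA-binding factors of limb, heart and other organ primordia, held the member with the largest difference. All 8 T-box genes were higher in ExE at E7.5 (median 10.2 points) and 3 of 8 at E6.5. Tbx5, a regulator of the heart and the forelimb, was at 7.30, 11.1, 14.96 and 14.3% in the E7.5 epiblast libraries and at 32.0, 35.0, 49.1 and 36.8% in ExE. The ExE libraries were all far above the epiblast libraries, and the difference was 26.3 points (SE 2.66, limma adjusted p = 9.14e-05). At E6.5 Tbx5 ranged from 7.90% over a median of 13.2% to 15.9% in epiblast, and stood at 44.2, 39.1, 41.4 and 46.4% in ExE, a difference of 29.9 points (SE 2.67, limma adjusted p = 0.000338). Tbx3, its neighbour on chromosome 5 at a distance of 162 kb and a regulator of limb and mammary development, was at 11.03, 11.5, 14.7 and 16.5% in E7.5 epiblast and at 31.0, 29.4, 24.5 and 27.1% in ExE. That difference was 14.5 points (SE 1.98, limma adjusted p = 0.000312), but it came to 1.16 points (adjusted p = 0.347) when the windows at the 5′ end of the gene alone were used. At E6.5 the Tbx3 values overlapped between tissues, with 14.7% ± 2.61 in ExE (n = 4) and 13.0% ± 4.95 in epiblast (n = 6) over the 4 windows complete in all these libraries. Without CAST/B6 epiblast replicate 1, which changes the windows that are complete, the difference was 12.5 points, and over the 5 windows complete in all E6.5 ExE libraries, the knockout included, the same ExE libraries were at 28.1, 21.2, 27.3 and 25.9%. Tbx4, a hindlimb regulator, had the highest level in E7.5 ExE among the 13 genes, at 41.0, 42.0, 46.0 and 42.8%, and was already at 27.5, 30.0, 28.6 and 31.1% in epiblast. Its neighbour Tbx2, at a distance of 53.9 kb on chromosome 11, was at 6.88, 7.09, 4.76 and 6.05% in ExE and at 0.728, 1.16, 1.20 and 1.44% in epiblast. Tbx2 thus did not overlap between tissues either, with a difference of 5.06 points (SE 1.13, limma adjusted p = 0.00343), although its level in ExE was one of the lowest.

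Of the 6 NK homeodomain genes, 5 were higher in ExE at E7.5 and 4 at E6.5. Nkx2-5, a cardiac regulator, was at 5.88, 6.44, 4.98 and 11.9% in E7.5 epiblast and at 26.8, 26.3, 29.6 and 28.6% in ExE, with a difference of 20.5 points (SE 1.63, limma adjusted p = 4.47e-05). At E6.5 it was at 31.5, 26.8, 24.8 and 24.5% in ExE, above all epiblast libraries, whose highest was 16.0% (difference 16.7 points, SE 2.48, adjusted p = 0.000912). Nkx2-1, a regulator of thyroid, lung and forebrain, went from 2.19% ± 0.328 to 13.1% ± 2.33 at E7.5. The exception at E7.5 was Nkx6-1, a regulator of ventral neural tube and pancreas, at 2.03, 0.8288, 1.35 and 2.65% in epiblast and at 4.43, 5.28, 3.61 and 3.99% in ExE. Its ExE libraries were all above its epiblast libraries, and the difference of 2.61 points had an adjusted p of 0.0600 in limma. At E6.5 Nkx6-1 was at 16.6, 12.95, 3.60 and 20.7% in ExE and at 0 to 8.25% in epiblast, with overlap (difference 9.54 points, SE 3.29, limma adjusted p = 0.0331). It was the only gene called higher at E6.5 and not at E7.5, and the E6.5 call was lost in 7 of the 10 fits that left out 1 library, where the difference was 4.85 to 12.5 points.

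The paired-box (Pax) genes, which regulate eye, kidney, muscle, skeleton and B cells among others, held both large gains and members that did not pass the test. At E7.5 6 of 8 were higher in ExE and the other pair, Pax5 and Pax8, did not pass in limma. Pax1, a regulator of the vertebral column, was at 8.14, 8.92, 4.76 and 8.68% in epiblast and at 21.8, 25.3, 26.1 and 27.6% in ExE (difference 17.6 points, SE 1.69, adjusted p = 7.78e-05). At E6.5 Pax1 was at 28.8, 32.5, 25.6 and 21.7% in ExE, again above the highest epiblast library, at 15.3%. Pax6, the eye and forebrain regulator, was at 9.10, 14.0, 10.1 and 9.47% in E7.5 epiblast and at 26.9, 31.1, 27.9 and 25.2% in ExE (difference 17.1 points, SE 1.63, limma adjusted p = 7.54e-05). Pax5, which is needed for B cells, was the member called lower at E6.5: it was at 39.1, 35.4, 35.0 and 40.5% in ExE and ranged from 43.9 to 51.6% in epiblast, and fell by 10.3 points (SE 2.71, limma adjusted p = 0.0110). At E7.5 its libraries overlapped, at 37.7% ± 3.20 in ExE and 41.5% ± 0.686 in epiblast (limma adjusted p = 0.0678).

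The direction in Pax5 differed between its starts. The E7.5 windows of 4118 bp over an internal start and of 6764 bp beside it fell by 28.1 and 24.8 points, while the window of 998 bp over another start rose from 5.36 to 16.2% and the window of 1009 bp before the 5′-most start rose from 6.70 to 21.2%. With the 5′ end alone, Pax5 was 11.2 points higher in ExE at E7.5 (limma adjusted p = 0.00594) and 9.03 points higher at E6.5 (adjusted p = 0.0522). Pax8, a thyroid and kidney regulator, has several annotated starts as well. Its promoter value overlapped between tissues, at 62.0% ± 3.74 in epiblast and 60.6% ± 3.09 in ExE. The window of 1474 bp over its 5′-most start, in which the bases printed above lie, rose from 13.5% ± 5.29 to 49.3% ± 5.47. There the highest epiblast library was at 20.9% and the lowest ExE library at 43.9%. In the E6.5 table the bases fall in a window of 4401 bp, at 49.1% ± 15.9 in epiblast (n = 6) and 59.6% ± 7.23 in ExE (n = 4).

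The LIM-homeodomain genes act in neurons, limbs and gonads. At E7.5 8 of 9 were higher in ExE and 1 was lower, and at E6.5 6 were higher. Lhx5, a forebrain regulator, was at 2.55, 12.5, 6.18 and 7.67% in E7.5 epiblast and at 20.1, 21.6, 23.3 and 22.7% in ExE, with a difference of 14.7 points (SE 2.14, limma adjusted p = 0.000436). At E6.5 its ranges overlapped, with a highest epiblast library of 19.1% and a lowest ExE library of 15.5%, and the difference of 13.4 points passed the test (adjusted p = 0.0107). Lhx9, which acts in the early gonad, was at 17.9, 21.3, 19.7 and 14.3% in E7.5 epiblast and at 29.1, 32.4, 25.8 and 29.6% in ExE. Lhx4, a pituitary and motor neuron regulator, was the member called lower at E7.5: it was at 35.0, 32.9, 34.4 and 36.2% in epiblast and at 28.1, 28.2, 30.2 and 27.3% in ExE. It fell by 6.17 points (SE 1.27, limma adjusted p = 0.00230), but with an unweighted mean of its windows it was 0.576 points higher (adjusted p = 0.617). As in Pax5, a long window went down and short ones did not: the Lhx4 window of 4316 bp over the 5′-most start fell by 15.8 points, from 67.8 to 51.9%, while a window of 854 bp upstream of the other start rose from 0.987 to 9.96% (limma over windows, adjusted p = 0.00754).

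The Iroquois genes, which pattern neural and cardiac tissue, passed as higher in ExE at E7.5 in 4 of 4 cases, 2 of them (Irx5 and Irx3) close to the threshold, and in 3 of 4 at E6.5. Irx1 was at 2.55, 2.43, 2.62 and 3.25% in E7.5 epiblast and at 14.9, 16.4, 19.4 and 16.8% in ExE (difference 14.1 points, SE 1.23, limma adjusted p = 5.72e-05). Within Irx1 the change was uneven. The window of 659 bp over the 5′-most start was at 1.17% ± 0.824 in epiblast and 1.79% ± 1.26 in ExE, whereas a window of 1139 bp, centred 1353 bp downstream of another annotated start, was at 6.86% ± 2.55 and 49.7% ± 12.3. At E7.5 that window had the largest difference of all member windows shorter than 2 kb, 42.8 points (limma adjusted p = 0.000203). In the gene of this family on chromosome 8 with the lowest level, Irx5, the ExE libraries were at 4.42, 3.71, 3.12 and 5.69% and the epiblast libraries at 1.32, 1.10, 1.73 and 1.27%, a difference of 2.88 points (SE 1.15, limma adjusted p = 0.0439). Irx3, its neighbour at 556 kb, was at 3.64, 3.30, 4.16 and 7.62% in ExE and at 1.78, 1.08, 0.475 and 1.34% in epiblast (difference 3.51 points, limma adjusted p = 0.0365). Both calls were marginal: that of Irx5 was lost on leaving out any E7.5 library other than CAST/B6 ExE replicate 1, and that of Irx3 on leaving out any other than that library and B6/CAST epiblast replicate 1. The E6.5 call of Irx5 was lost in 5 of the 10 fits that left out 1 library, where the difference was 5.74 to 8.59 points.

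All 7 genes of the Dlx, Barhl and Gsc group of homeodomain factors were higher in ExE at E7.5, with a median of 5.86 points, and 5 of 7 at E6.5. Barhl1, which acts in the inner ear and cerebellum, was at 8.83, 8.68, 9.07 and 8.36% in E7.5 epiblast and at 28.0, 26.1, 31.2 and 33.0% in ExE, without overlap (difference 20.8 points, SE 1.46, limma adjusted p = 3.60e-05). Barhl2, its relative in the eye and brain, reached only 6.83% ± 1.42 in ExE, from 1.37% ± 0.294. The sine oculis-related genes Six2, Six3 and Six6, of eye, forebrain and kidney, were all higher at E7.5 and 2 of the 3 at E6.5, with Six3 at 19.2% ± 1.29 in ExE and its neighbour Six2, 74.7 kb away, at 6.21% ± 1.29. All 6 forkhead genes, of endoderm, mesoderm and neural crest, were higher at E7.5, with differences of 4.34 to 11.3 points, and 2 of 6 at E6.5.

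Both SOX genes were higher at E7.5 and 1 of them, Sox17, at E6.5, namely Sox1, a neural regulator, and Sox17, an endoderm regulator, which went from 8.14% ± 1.68 to 19.3% ± 2.59. Of the GATA pair, Gata6 went from 7.62% ± 1.13 to 18.5% ± 1.48 at E7.5, and Gata4, with several starts like Pax5, overlapped between tissues at 37.5% ± 1.21 and 37.7% ± 3.78. Single windows of Gata4 did differ, and 3 of its 4 windows under 2 kb were higher in ExE at E7.5. At E6.5 a Gata4 window of 5971 bp fell by 13.3 points and another rose by 33.1 points (limma over windows, adjusted p = 0.0447 and 0.000612). The basic helix-loop-helix genes Olig2 and Neurog1, both neural, were higher at E7.5, and 0 of the 3 genes of this class passed at E6.5 in limma or at an unadjusted p under 0.05, while the proneural gene Neurog2 had the lowest mean of all 58 genes in E7.5 ExE, at 2.91, 2.03, 3.37 and 3.17%, and was at 1.43, 1.31, 1.97 and 0.690% in epiblast. Its 4 ExE libraries were above its 4 epiblast libraries, with a difference of 1.52 points (limma adjusted p = 0.219).

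Windows were then taken one at a time, since the promoter value averages CpG-dense and CpG-poor DNA. The windows are labelled as holding 100 CpGs, by which a short window would be a CpG-dense one. Windows under 2 kb were called dense by their length alone. Counted in the sequence, the label does not hold for every window. The 2 kb around the 5′ end of Pax8 hold 40 CpGs and take in most of its window of 1474 bp. At E7.5 139 of 240 dense member windows were higher in ExE and 0 were lower (limma over all windows), beside 9.28% and 17.6% of all dense windows. Of the 80 longer member windows 56 were higher and 11 were lower, beside 0.581% and 88.7% of all longer windows. At E6.5 41 of 145 dense and 33 of 69 longer member windows were higher, and 0 and 7 were lower, where 6.04% and 0.338% of all dense and longer windows were higher and 5.53% and 62.9% lower. At least 1 dense window was higher at E7.5 in 55 of the 58 genes, beside 9.68% of 12182 genes with a dense window. In 25 of the 58 genes a dense window was at 20% or more in every ExE library and above every epiblast library, beside 2.28% of those genes.

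The difference was larger away from the start. Windows whose centre lay within 250 bp of a start had medians of 1.60% in epiblast and 5.16% in ExE at E7.5, and a median difference of 3.60 points (n = 77). The median difference was 4.74 points at 250 to 500 bp (n = 59), 8.28 points at 500 to 1000 bp (n = 78), 13.4 points at 1000 to 2000 bp (n = 78) and 14.5 points beyond 2000 bp (n = 28). The same order held at E6.5 up to 2000 bp, with 2.74, 5.08, 6.09 and 15.3 points, and the median was 10.7 points beyond that (n = 22). Windows far from a start were also longer and more methylated in the epiblast, at 14.9% beyond 2000 bp at E7.5.

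**Figure D3:**
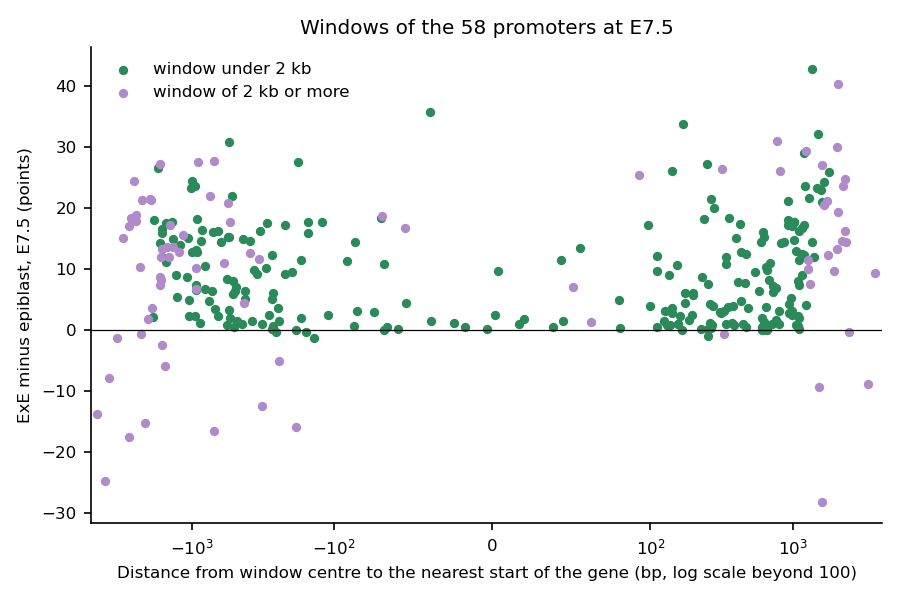
Difference between ExE and epiblast (percentage points, E7.5) of each of the 320 member windows against the distance from the centre of the window to the nearest annotated start of its gene (bp, negative upstream, linear within 100 bp and logarithmic beyond), with windows under 2 kb in green and longer ones in purple. The green points within 250 bp lie mostly near 0, the points beyond 1000 bp mostly above 10, and the 11 windows called lower are all purple.

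The 58 promoters were CpG-rich at the median but not throughout. The 2 kb around the 5′ end of the gene held a median of 99.5 CpGs (range 20 to 206), against 63 over all 20780 promoters. Across the 58 genes the number of CpGs and the E7.5 ExE level were related inversely (Pearson r = -0.716, Spearman rho = -0.783), as were the number of CpGs and the epiblast level (r = -0.616, rho = -0.743). The relation to the difference between tissues was weak (r = -0.122, rho = -0.241). These are descriptions across genes, which are not independent, and window placement depends on CpG density as well. The CpGs were counted at the 5′ end only, whereas the level covers all annotated starts of a gene, 24 in the case of Pax6. Neighbouring genes could differ: besides Tbx2 and Tbx4, Nkx2-2 was at 11.6% and Pax1 at 25.2% in E7.5 ExE at a distance of 168 kb on chromosome 2.

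The days were set side by side without a test, because E6.5 and E7.5 libraries also differed in protocol, in pooling of embryos and in the placement of the windows. The sign of the difference between tissues was the same at both days in 55 of the 58 genes. The difference was positive in 52 genes at E6.5 and in 55 at E7.5. Of the 32 genes called higher at E6.5, 96.9% were among the 52 called higher at E7.5, and 59.6% of the latter were called at E6.5. These shares lie near those of all members, with 52 of 58 called at E7.5 and 32 of 58 at E6.5. They therefore say little about whether the days picked the same genes. Across the 58 genes the differences at the 2 days had r = 0.730 and rho = 0.631. The median ExE level was 16.9% at E6.5 and 15.8% at E7.5, and the median epiblast level 5.39 and 5.58%. In ExE 31 genes were higher at E6.5 and 27 at E7.5. Single genes could be apart, and the windows behind them differed. Gsc, the organiser gene goosecoid, named here after its values were seen, was at 24.4, 20.9, 29.5 and 21.9% in E6.5 ExE over 2 windows and at 6.17, 7.14, 9.93 and 7.83% in E7.5 ExE over 3 windows. Over the 3 windows complete in all E6.5 ExE libraries it was at 19.04, 15.3, 21.4 and 16.6% in the same E6.5 libraries.

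No member passed the test between crosses. Between CAST/B6 and B6/CAST, 0 of 56 genes passed in E6.5 epiblast, 0 of 57 in E6.5 ExE, and 0 of 58 in either tissue at E7.5 (limma), with 4, 5, 0 and 3 at an unadjusted p under 0.05. Over all promoters 0% passed in each comparison, and 14.8%, 23.2%, 5.95% and 4.78% were at an unadjusted p under 0.05. The median differences of the members were -1.29, 0.52, 0.291 and 0.367 points, while all promoters had medians of 5.96 and 7.28 points at E6.5 and 1.04 and 0.237 points at E7.5. The largest differences that kept their sign in every library were those of Nkx2-5 in E6.5 epiblast, at 1.96% ± 3.396 in CAST/B6 and 14.7% ± 7.25 in B6/CAST (n = 3 each, limma adjusted p = 0.303), and of Tbx20 in E6.5 ExE, at 36.9% ± 5.78 and 19.8% ± 5.39 (n = 2 each, limma adjusted p = 0.147). Next came Pax8 in E6.5 epiblast, 11.8 points higher in CAST/B6 (adjusted p = 0.311), and Nkx2-9 in E6.5 ExE, 16.3 points lower (adjusted p = 0.146), or 10.8 points without CAST/B6 replicate 2. The Nkx2-5 value rests on the 1 window complete in all E6.5 epiblast libraries, and was -7.35 points when matDKO/CAST epiblast replicate 3 was left out. At E7.5 Tbx5 was 5.45 points higher in CAST/B6 epiblast (adjusted p = 0.865) and 9.44 points higher in CAST/B6 ExE, Nkx2-9 was 5.13 points higher in epiblast, and Olig2 was at 18.0% ± 0.0938 against 11.1% ± 1.20 in ExE (limma adjusted p = 0.9995 for both ExE values). Without CAST/B6 ExE replicate 1 the Tbx5 value in ExE was 3.31 points and without replicate 2 it was 15.6 points, and without CAST/B6 epiblast replicate 2 the Nkx2-9 value was 0.987 points and without replicate 1 it was 9.26 points. The Tbx5 value in epiblast was 3.56 points without B6/CAST epiblast replicate 1 and 7.34 points without replicate 2. Without overlap between crosses, 2 members were higher in CAST/B6 and 9 lower in E6.5 epiblast, beside 25.1% and 0.912% of all promoters, and 12 and 11 in E6.5 ExE, beside 54.7% and 3.82%. At E7.5 15 and 4 members did not overlap in epiblast, beside 25.8% and 9.22%, and 22 and 7 in ExE, beside 19.1% and 13.9%. In the fit of the interaction between tissue and cross 0 of 58 genes passed at either day (limma), with 0 and 1 at an unadjusted p under 0.05, beside 4.83% and 4.03% of all promoters. Within each direction of the cross, 41 genes were called higher in ExE in B6/CAST alone and 42 in CAST/B6 alone at E7.5, beside 1.46% and 1.41% of all promoters.

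Both parental alleles carried the methylation at E7.5. Over the 55 genes with allelic values in every ExE library, the median was 18.7% on the maternal and 18.4% on the paternal allele, and over 49 genes in epiblast 6.63 and 6.06%. In the 49 genes measured in both tissues the ExE mean was above the epiblast mean on the maternal allele in 43 and on the paternal allele in 44, with median differences of 8.81 and 9.96 points. In 20 of these genes every ExE library was above every epiblast library on both alleles, beside 5.81% of 16623 promoters. For the difference between alleles, 0 of 49 genes passed in epiblast and 0 of 55 in ExE (limma), with 1 and 2 at an unadjusted p under 0.05, beside 5.15% and 6.61% of all promoters at that p. Of all promoters 0.00601% and 0.00533% passed as higher on the maternal allele.

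Allelic values rest on reads that cover a strain difference and were more scattered. Barhl1 in ExE was at 34.5, 25.6, 25.1 and 26.0% on the maternal allele and at 28.1, 21.2, 41.7 and 34.5% on the paternal allele, which overlap. Tbx5 was at 57.0, 47.7, 43.1 and 34.2% on the maternal and at 17.9, 53.6, 64.7 and 53.2% on the paternal allele, with 1 B6/CAST library apart from the others. The largest difference of constant sign in ExE was in Lhx6, a regulator of interneurons, at 20.4% ± 2.77 maternal and 28.6% ± 6.84 paternal (n = 4, limma adjusted p = 0.789). Pax2, a kidney and ear regulator, followed at 14.2% ± 3.41 and 20.8% ± 7.12 (adjusted p = 0.809). The Lhx6 difference was -4.34 points without CAST/B6 ExE replicate 1, and that of Pax2 -3.27 points without B6/CAST ExE replicate 2. In epiblast it was in Gata4, at 57.3, 60.2, 51.0 and 53.1% maternal and at 43.8, 49.9, 42.7 and 47.8% paternal, with the maternal allele higher in 4 of 4 libraries by 9.33 points (limma adjusted p = 0.905, unadjusted p = 0.0181), and Irx2 followed with 3.34 points (adjusted p = 0.954). The Gata4 difference was 0.268 points without CAST/B6 epiblast replicate 2. For the difference between B6 and CAST alleles, added after the values were seen, 0 of 49 and 0 of 55 genes passed (limma), with 4 and 5 at an unadjusted p under 0.05, beside 7.57% and 9.19% of all promoters.

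**Figure D4:**
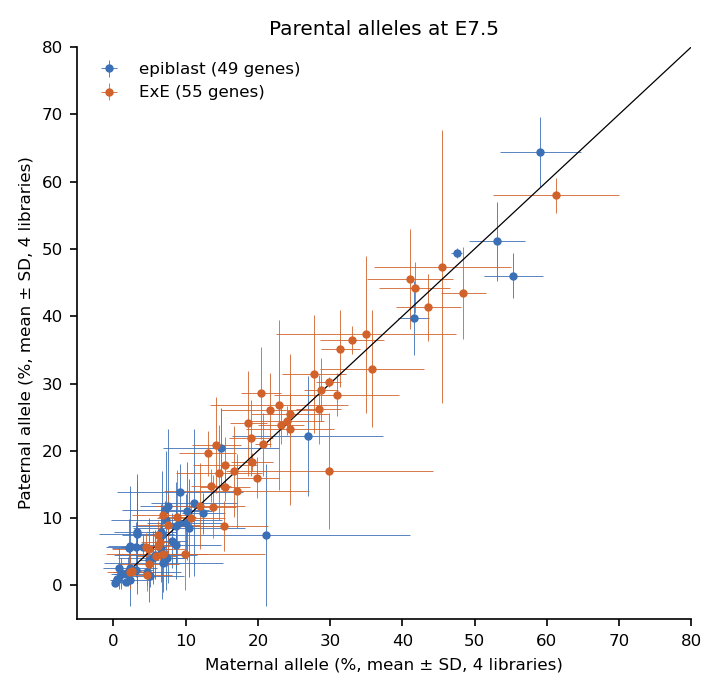
Maternal against paternal promoter methylation (%, mean ± SD of 4 libraries) at E7.5 for 49 genes in epiblast (blue) and 55 genes in ExE (orange), with the line of equality. The points follow the line in both tissues, around medians of 18.7 and 18.4% in ExE, and the bars are wide.

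Loss of Dnmt3a and Dnmt3b in the oocyte, which leaves the maternal genome largely unmethylated at fertilisation, was compared with B6/CAST at E6.5. In ExE the median over the members was 17.9 and 16.3% in the B6/CAST libraries, 16.4 and 15.8% in the CAST/B6 libraries, and 8.70, 12.2 and 10.4% in the matDKO/CAST libraries, which lay below all others. The median difference was -6.81 points over 57 genes and -9.64 points over all promoters, and over the 24 housekeeping genes -6.79 points. Relative to the mean of each library the members' median difference was instead 5.62 points higher in matDKO/CAST, where the library means were 38.1 to 40.4%, against 52.0 and 52.1% in B6/CAST. The promoter value was lower in 52 of 57 genes, and in 37 every matDKO/CAST library was below every B6/CAST library, a pattern found in 58.3% of all promoters. In 0 genes was every library higher, beside 0.526% of all promoters. In limma 0 of the 57 genes passed, beside 0% of all 19395 promoters, with 15 of the 57 at an unadjusted p under 0.05, all lower, beside 33.7% of all promoters lower at that p. With both wild-type crosses pooled as the control 12 genes passed, all lower, beside 40.7% of all promoters.

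Nkx2-9, a ventral neural gene, had the largest difference, at 37.3 and 28.1% in B6/CAST ExE and at 9.71, 16.6 and 10.4% in matDKO/CAST ExE (difference -20.5 points, SE 5.13, limma adjusted p = 0.0780). The CAST/B6 libraries, at 21.9 and 10.98%, overlapped the matDKO/CAST range. Over the 4 windows complete in all ExE libraries Pax1 was at 30.7 and 28.9% in B6/CAST, 24.6 and 20.6% in CAST/B6 and 12.2, 11.03 and 10.4% in matDKO/CAST, without overlap (difference -18.6 points, SE 3.67, limma adjusted p = 0.0760). Tbx5 was at 37.2, 24.9 and 31.1% in matDKO/CAST ExE, against 42.3 and 39.9% in B6/CAST. The Paired-box genes had a median difference of -10.3 points and the forkhead genes of -1.58 points.

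**Figure D5:**
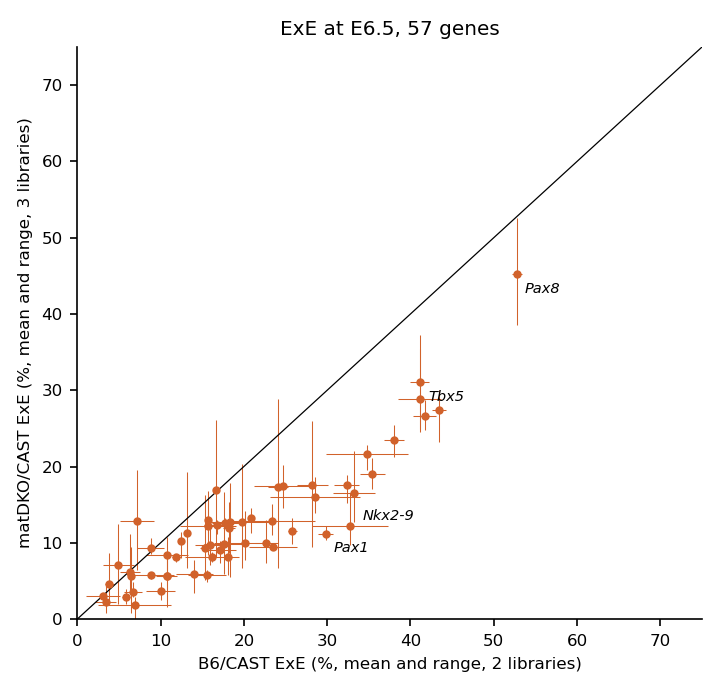
Promoter methylation (%) of 57 genes in E6.5 ExE, with the mean and range of 2 B6/CAST libraries on the horizontal axis and of 3 matDKO/CAST libraries on the vertical axis, and the line of equality. The points lie below the line in 52 of 57 genes, and 4 genes are labelled.

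In the epiblast most members were low in matDKO/CAST as in B6/CAST. The median was 4.92 to 8.72% in the B6/CAST libraries, 1.73 to 3.88% in the CAST/B6 libraries and 3.81 and 4.91% in the matDKO/CAST libraries. Against B6/CAST there was a median difference of -1.21 points over 56 genes and -12.4 points over all promoters, and of 15.5 points, in the opposite direction, after the mean of each library was subtracted. The members' median was -2.70 points without matDKO/CAST epiblast replicate 3. Without overlap 9 members were lower and 4 higher, beside 55.0% and 0.923% of all promoters. In limma 0 of the 56 genes passed, with 2 at an unadjusted p under 0.05, beside 44.1% of 17761 promoters at that p. Of all promoters 0.0563% passed as higher and 23.8% as lower. Under other settings 1 member passed with trend and robust settings (beside 20.2% of all promoters), 3 with both crosses pooled (beside 48.2%), and 2 had a window that passed (beside 32.1% of all genes). Pax8, one of the members methylated in epiblast, was at 56.2, 50.9 and 55.3% in B6/CAST and at 47.4 and 37.6% in matDKO/CAST (difference -11.6 points, limma adjusted p = 0.105), and the difference was -6.77 points without matDKO/CAST epiblast replicate 3. Pax3, a muscle and neural crest regulator, was at 5.41, 36.4 and 7.99% in B6/CAST and at 1.01 and 1.96% in matDKO/CAST, with a difference of -15.1 points that was -3.63 points without B6/CAST epiblast replicate 3. The CAST/B6 libraries, at 1.02, 8.75 and 0.107%, overlapped those of matDKO/CAST.

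The difference between tissues within matDKO/CAST was added after the values were seen. Its median over 52 genes was 2.75 points, against a fall of 7.17 points over all promoters, and 43 of the 52 genes were higher in ExE. In limma 1 gene was higher, Lhx9 (16.9 points, SE 4.13, adjusted p = 0.0236), and 1 was lower, Pax5 (by 17.0 points, adjusted p = 0.0219), beside 0.208% and 11.9% of 16793 promoters. Neither passed without matDKO/CAST epiblast replicate 3, where Lhx9 differed by 5.47 points and Pax5 by -12.6 points, or without ExE replicate 3, and Lhx9 also not without epiblast replicate 1 or ExE replicate 1. In 20 genes all 3 ExE libraries were above both epiblast libraries and in 2 genes below, beside 4.1% and 36.9% of all promoters. The direct test, the interaction of knockout and tissue, gave 0 of 52 genes in limma, with 5 at an unadjusted p under 0.05, beside 7.11% of all promoters, and a median of -4.06 points, against 2.57 points over all promoters. The tissue difference in matDKO/CAST is therefore not shown to differ from that in B6/CAST at any member.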

How the data were processed

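Reads were trimmed with Trim Galore and mapped to GRCm38 with Bismark, per the labels (Trim Galore 0.4.4 and Bismark 0.20.0 in the submitters' processing notes, whereas the study's methods state other versions). The authors deposited percent methylation over consecutive windows labelled as 100 CpGs, without coverage, for E6.5, E7.5 and the E7.5 parental alleles. The E6.5 windows are placed differently, so each table's own windows were used. The E7.5 bisulphite conversion had been repeated after a poor first conversion. An E6.5 B6/CAST epiblast column whose number matches no title entered its group unnumbered.

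Promoter values used GENCODE starts ± 1000 bp and windows with a value in every library of a comparison. limma 3.58.1 (R 4.3.3) was fitted over all autosomal protein-coding promoters with Benjamini-Hochberg adjustment at 0.05 and, between tissues, the cross as covariate. The code was tested on simulated data. Alternatives covered scale, weighting, starts, missing values, library level, single windows, a minimum of 10 points, replicates left out and replicate numbers as a block. Genes given in full were the 8 largest gains, the called losses, the 5 lowest ExE levels and, elsewhere, called genes or else the 2 largest differences of constant sign. Members and lists were chosen with earlier results of these data known.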

Additional observations from a re-analysis of the deposited data

Results flagged for a closer look

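Among 64 groups of 4 or 6 libraries tested for a library far from the others, 1 was found, and chance alone gives about 1 in 20. In E6.5 ExE the Irx3 promoter was at 3.13% in B6/CAST replicate 2 and at 0 in the other 3 libraries. These values rest on the 2 windows complete in all wild-type E6.5 libraries. Over the 2 windows complete in all E6.5 ExE libraries, the knockout included, the same libraries were at 16.3% in B6/CAST replicate 2 and 16.9, 17.1 and 35.9% in the others.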

How the results depend on the processing

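The tables give no depth, so low levels carry an unknown counting error, and the E6.5 libraries spread more than those of E7.5. At E6.5, 32 genes were higher in ExE and 1 lower; the counts were 19 and 2 with windows that hold a start, 21 and 0 with the 5′ end of the gene only, 57 and 0 after subtracting the library mean, 7 and 0 in B6/CAST alone and 8 and 0 in CAST/B6 alone, and 5 genes had a lower window when windows were tested singly, beside 62.9% of all genes. At E7.5, 52 were higher and 1 lower; 27 and 0 passed with a minimum difference of 10 points, 0 were lower with unweighted windows, after subtracting the library mean and in each cross alone, and 7 had a lower window when windows were tested singly, beside 89.2% of all genes. Same-numbered libraries had correlations of 0.0615, 0.0763 and 0.0133. With so few libraries per group these values cannot decide whether the replicate numbers pair the libraries. With the number as a block 5 genes were higher and 0 lower at E6.5, and 51 and 2 at E7.5. Beside these, 0.238% of all promoters were higher at E6.5, and 2.44% were higher and 82.4% lower at E7.5. The direction turned for Pax5 at E6.5 (9.03 points with the 5′ end, 6.22 after subtracting the library mean) and E7.5 (11.2 and 12.5), for Lhx4 after subtracting the library mean (11.1 and 10.2) and with unweighted windows at E7.5 (0.576), and for the knockout medians after subtracting the library mean (15.5 in epiblast, 5.62 in ExE). For the knockout, 0 genes passed in either tissue, against 1 in epiblast with trend and robust settings, 2 with windows tested singly and 3 with both crosses as wild type, and 12 in ExE with both crosses (beside 20.2%, 32.1%, 48.2% and 40.7% of all promoters or genes).

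Leaving out each library in turn gave 23 to 35 genes higher at E6.5 and 1 lower throughout, and at E7.5 48 to 52 higher and 1 to 2 lower (2 without B6/CAST ExE replicate 1). It gave 0 to 1 in knockout epiblast (1 without B6/CAST epiblast replicate 1), and 0 to 1 higher and 0 to 1 lower between tissues in the knockout, where Lhx9 and Pax5 each depended on a library. The causes were not tested. Values near 0 that had not passed could turn as well, such as Irx3 at E6.5 (-0.220 without B6/CAST ExE replicate 2), which passed at 15.1 points without B6/CAST epiblast replicate 3.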
